A study of Mus musculus with 6 samples.

Results

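The trefoil factor and Reg lectin genes were 10 genes of the deposited expression table, namely *Tff1*, *Tff2*, *Tff3*, *Reg1*, *Reg2*, *Reg3a*, *Reg3b*, *Reg3d*, *Reg3g* and *Reg4*, out of 22513 entries. They were chosen by gene name, with their values in these libraries already known, so the values of the genes in the comparisons below are a description and carry no test. The table held 6 libraries of fetal thymus from mice on the C57BL/6 background, cultured as whole lobes. All lobes, controls included, had been cultured for 4 days with 2-deoxyguanosine (2-DG), which is used to deplete haematopoietic cells and leave the stroma. Of the libraries, 1 came from unstimulated wild-type (WT) stroma, 1 from unstimulated *Jmjd6*-/- stroma, and 2 per genotype from stroma stimulated for 4 days with RANKL, the cytokine that drives maturation of medullary thymic epithelial cells (mTECs). *Jmjd6* encodes a nuclear lysyl hydroxylase, and its loss was germline, so every cell type of the lobe lacked it. The labels call the repeated libraries technical duplicates, while the study's text calls them samples, so SDs and p-values cover only the spread between these libraries.

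Values are FPKM, a count of fragments scaled to the length of the exons and to the mapped fragments of the library, which corrects for transcript length and so can be compared between genes. *Jmjd6* stood at 25.9 to 32.5 FPKM in the WT libraries and at 1.32 to 1.96 FPKM in the *Jmjd6*-/- libraries. *Aire*, an mTEC gene that RANKL induces, stood at 0.142 and 0.473 FPKM without RANKL and at 67.1 to 79.7 FPKM with it. The labels therefore held for both genes. The depth, estimated from the smallest steps among low values, was about 15200000 to 31200000 fragments per library. WT RANKL replicate 2 (15200000) and the unstimulated *Jmjd6*-/- library (16300000) were the shallowest. WT RANKL replicate 1 (29100000) and the unstimulated WT library (31200000) were the deepest. The WT RANKL libraries differed from each other more than the *Jmjd6*-/- RANKL libraries did, with a median absolute log2 difference of 0.28 against 0.08 over 12587 entries. The *Jmjd6*-/- RANKL libraries differed in the summed FPKM of 4 genes of the Y chromosome, at 73.7 and 16.4, and the unstimulated *Jmjd6*-/- library held 0.121, against 41.0 to 78.3 in the WT libraries. The embryos behind the libraries were thus not matched for sex, and the part of this in the values below was not tested.

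Trefoil factors are small secreted peptides, held in a compact clover-leaf fold by disulphide bonds, that are released with mucus and help epithelia to close after injury. Reg proteins are small secreted lectins of the C-type family. Those of the Reg3 group are made by the gut lining and the injured pancreas, and some kill bacteria, while *Reg1* and *Reg2* are best known from the exocrine pancreas and the islets. In the thymus, mTECs are known to express many genes of peripheral tissues, often at low levels and in few cells each. This exposes developing T cells to these self-antigens. Which cells of the lobes held the transcripts of the members was not tested.

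The genes lie in 3 places in the mouse genome (mm10). *Tff3* (31125306 to 31129611), *Tff2* (31141062 to 31144282) and *Tff1* (31161396 to 31165053) lie on the minus strand of chromosome 17 within 39.7 kb. *Reg3b*, *Reg3d*, *Reg3a*, *Reg2*, *Reg1* and *Reg3g* lie in this order within 98.0 kb of chromosome 6 (78370885 to 78468874), with *Reg3d* and *Reg3g* on the minus strand and the others on the plus strand. No other entry of the table lies inside either cluster. *Reg4* stands alone on the plus strand of chromosome 3 (98222156 to 98236748). The annotated transcripts have 3 to 7 exons. None of the members' transcripts shares a run of 50 bases with a transcript of another member, although *Reg1* shares 3.74% of such windows with transcripts of genes outside the family.

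Promoter windows of 300 bases, the last 50 of them after the annotated start, were taken from RefSeq (GRCm38.p6), whose table held 7 of the 10 members, all of them Reg genes. The windows of *Reg3b* (chr6:78370635-78370934, plus strand), *Reg3g* (chr6:78468825-78469124, minus strand), *Reg1* (chr6:78425733-78426032, plus strand), *Reg2* (chr6:78404905-78405204, plus strand) and *Reg3a* (chr6:78380459-78380758, plus strand) are shown because these neighbours ranged in WT stroma under RANKL from the most abundant member to one near 0. Each is written 5′ to 3′ along its gene, with capitals for the TATA box letters TATAAA and for TTCNNNGAA, a motif of the kind STAT factors bind, read on either strand (TTTATA is TATAAA on the other strand).
Reg3b: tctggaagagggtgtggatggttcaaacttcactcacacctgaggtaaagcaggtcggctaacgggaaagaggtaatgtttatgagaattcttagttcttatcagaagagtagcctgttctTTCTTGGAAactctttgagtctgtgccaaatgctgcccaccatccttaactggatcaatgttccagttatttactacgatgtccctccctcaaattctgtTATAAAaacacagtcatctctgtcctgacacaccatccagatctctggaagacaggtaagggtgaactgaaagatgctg
Reg3g: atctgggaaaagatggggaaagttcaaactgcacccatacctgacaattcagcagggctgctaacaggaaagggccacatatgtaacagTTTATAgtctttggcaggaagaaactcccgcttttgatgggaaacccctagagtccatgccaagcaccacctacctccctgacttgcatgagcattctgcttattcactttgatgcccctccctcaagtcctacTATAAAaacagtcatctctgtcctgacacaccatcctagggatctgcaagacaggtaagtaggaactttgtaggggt
Reg1: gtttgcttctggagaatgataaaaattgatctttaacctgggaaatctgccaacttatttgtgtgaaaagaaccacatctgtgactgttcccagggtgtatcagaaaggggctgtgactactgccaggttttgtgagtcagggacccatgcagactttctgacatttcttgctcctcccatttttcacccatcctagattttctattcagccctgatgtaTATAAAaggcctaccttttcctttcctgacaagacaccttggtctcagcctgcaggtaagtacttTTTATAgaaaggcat
Reg2: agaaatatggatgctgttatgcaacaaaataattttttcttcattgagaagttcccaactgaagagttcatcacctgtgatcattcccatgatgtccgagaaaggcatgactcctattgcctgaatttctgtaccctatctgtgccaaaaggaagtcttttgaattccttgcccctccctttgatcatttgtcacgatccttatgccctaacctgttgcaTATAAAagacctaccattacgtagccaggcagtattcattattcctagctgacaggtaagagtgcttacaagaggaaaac
Reg3a: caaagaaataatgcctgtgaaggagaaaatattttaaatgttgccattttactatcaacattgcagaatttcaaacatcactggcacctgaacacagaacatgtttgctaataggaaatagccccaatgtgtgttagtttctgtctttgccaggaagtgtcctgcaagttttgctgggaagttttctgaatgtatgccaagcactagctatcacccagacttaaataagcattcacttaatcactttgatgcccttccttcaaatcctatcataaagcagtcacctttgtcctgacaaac
TATAAA stood 30 bases before the start of *Reg1* and of *Reg2*, 29 before that of *Reg3b* and 27 before that of *Reg3g*, and was absent from the windows of *Reg3a*, *Reg3d* and *Reg4*. It was thus in 4 of the 7 windows, against 13.6% of 32851 windows of all genes. TTCNNNGAA was in 2 of the 7, 129 bases before the start of *Reg3b* and 238 before that of *Reg3d*, against 8.3% of all windows. CCAAT was in 2 (*Reg3a* and *Reg4*), against 37.4%. An NF-κB motif, read as GGG and CC 5 bases apart, was in 1 (*Reg3g*), against 50.8%. *Reg3b* and *Reg3g*, which lie at opposite ends of the cluster on opposite strands, share a run of 29 bases, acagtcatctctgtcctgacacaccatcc, just after their TATAAA. *Reg1* and *Reg2* were identical at 38.33% of positions without gaps and shared no run longer than 10 bases. Such matches describe the letters in these windows, and *Reg2*, which was at or near 0 in every library, holds TATAAA at the same distance from its start as *Reg1*.

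*Reg3g*, a lectin of the gut lining that kills Gram-positive bacteria, was by far the most abundant member. It stood at 5.89 FPKM in unstimulated WT stroma, at 3.02 in its *Jmjd6*-/- counterpart, at 99.0 and 173 in WT stroma with RANKL and at 28.2 and 29.1 in *Jmjd6*-/- stroma with RANKL. All 4 stimulated libraries were thus above both unstimulated ones, and both WT RANKL libraries were above both *Jmjd6*-/- RANKL libraries. The means under RANKL were 135.9 ± 52.2 and 28.6 ± 0.624 FPKM (SD, n = 2 libraries each), so the *Jmjd6*-/- mean was 21.1% of the WT mean, and the log2 difference with 0.1 added to FPKM was -2.19 (SE 0.27, limma). With RANKL the mean was 23.1-fold the unstimulated value in WT stroma and 9.50-fold in *Jmjd6*-/- stroma. *Reg3g* made up 89.3% to 100% of the summed FPKM of the 7 Reg genes in every library.

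*Reg3b*, the lectin also known as pancreatitis-associated protein, showed the lowest *Jmjd6*-/- share of WT among the members seen in both genotypes. Its FPKM was 0.0535 in unstimulated WT stroma, 0 in unstimulated *Jmjd6*-/- stroma, 4.10 and 12.3 in WT stroma with RANKL and 0.123 and 0.249 in *Jmjd6*-/- stroma with RANKL. Both WT RANKL libraries were far above the other 4. In fragments these values were about 1, 0, 75, 118, 2 and 3. The mean under RANKL was 8.19 ± 5.79 FPKM in WT and 0.186 ± 0.0893 FPKM in *Jmjd6*-/- stroma, or 2.27% of WT. The ratio of fragments, scaled by depth, was 40.9 in favour of WT, with an exact 95% interval of 17.2 to 127 that covers counting error only.

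*Reg1*, a secretory product of pancreatic acinar cells, had 0.269 FPKM in the unstimulated WT library and 0 in that from unstimulated *Jmjd6*-/- lobes. Under RANKL it had 3.31 and 6.26 FPKM in WT and 0.247 and 0.0835 FPKM in *Jmjd6*-/- stroma. The unstimulated WT library was thus above both stimulated *Jmjd6*-/- libraries. The *Jmjd6*-/- mean under RANKL, 0.165 ± 0.116 FPKM, was 3.46% of the WT mean of 4.79 ± 2.08 FPKM (SD, n = 2), with a ratio of fragments of 25.3 (exact 95% interval 11.3 to 70.1). About 73 and 72 fragments stood behind the WT values and 5 and 1 behind the *Jmjd6*-/- values.

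*Reg3a*, a Reg3 lectin of pancreas and gut, was seen only in the 2 WT RANKL libraries, at 0.783 and 1.49 FPKM or about 15 fragments each. The other 4 libraries were at 0. Taking 0 as up to 3 fragments over both *Jmjd6*-/- libraries, which is 0.0952 FPKM, the WT mean of 1.14 ± 0.503 FPKM was at least 12.0-fold higher, and at least 8.23-fold without WT replicate 2. Against the unstimulated WT library it was at least 7.99-fold higher.

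*Reg4*, a Reg lectin of secretory cells of the gut and the member outside the clusters, was low throughout. It had 0.417 and 0.508 FPKM in WT stroma with RANKL, 0.0376 FPKM (1 fragment) in unstimulated WT stroma and 0 in the 3 *Jmjd6*-/- libraries. The WT values under RANKL rested on about 11 and 7 fragments and were at least 6.27-fold above the limit of 0.0738 FPKM in *Jmjd6*-/- stroma. *Reg2*, a Reg protein of pancreas and islets, was at 0 except for 0.131 FPKM, or 1 fragment, in WT RANKL replicate 2. *Reg3d*, a Reg3 lectin of the pancreas, was at 0 except for 0.114 FPKM, or 2 fragments, in WT RANKL replicate 1. At this depth no difference between groups was detectable for *Reg2* and *Reg3d*, and no fold is given for them.

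Of the trefoil factors, *Tff1*, a peptide of the surface mucous cells of the stomach, had the smallest log2 difference between the genotypes under RANKL among the 8 members that passed the filter described below. It was present without RANKL, at 2.77 FPKM in WT and 2.00 FPKM in *Jmjd6*-/- stroma. With RANKL it had 4.37 and 13.0 FPKM in WT and 3.26 and 3.22 FPKM in *Jmjd6*-/- stroma. The groups under RANKL did not overlap, but the lower WT library lay closer to the *Jmjd6*-/- libraries than to the other WT library. The WT mean of 8.70 ± 6.11 FPKM was 2.69-fold the *Jmjd6*-/- mean of 3.24 ± 0.0257 FPKM (SD, n = 2), 1.35-fold without WT replicate 2 and 4.02-fold without WT replicate 1.

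*Tff2*, a trefoil peptide of gastric mucous neck cells, was seen only in the WT RANKL libraries, at 1.01 and 2.71 FPKM or about 13 and 18 fragments. The 3 *Jmjd6*-/- libraries and the unstimulated WT library were at 0. The WT mean of 1.86 ± 1.20 FPKM was at least 12.5-fold above the limit of 0.148 FPKM in *Jmjd6*-/- stroma, at least 6.82-fold without WT replicate 2 and at least 18.3-fold without WT replicate 1.

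*Tff3*, the trefoil factor of intestinal goblet cells, was at 0 in both unstimulated libraries. With RANKL it stood at 5.90 and 8.22 FPKM in WT and at 1.18 and 0.409 FPKM in *Jmjd6*-/- stroma, about 59, 43, 11 and 3 fragments. Each stimulated value was therefore above the 0 of the unstimulated libraries, with no overlap between the genotypes. The *Jmjd6*-/- mean of 0.797 ± 0.549 FPKM was 11.3% of the WT mean of 7.06 ± 1.64 FPKM (SD, n = 2), and the ratio of fragments was 7.68 (exact 95% interval 4.37 to 14.5). In WT stroma the RANKL mean was at least 25.2-fold the unstimulated limit, and in *Jmjd6*-/- stroma at least 1.48-fold. The *Jmjd6*-/- bound rested on replicate 1, since replicate 2, at 0.409 FPKM, lay below the unstimulated limit of 0.537 FPKM. In bulk stroma such as this, fewer cells with a transcript and less of it per cell cannot be told apart.

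**Figure D1:**
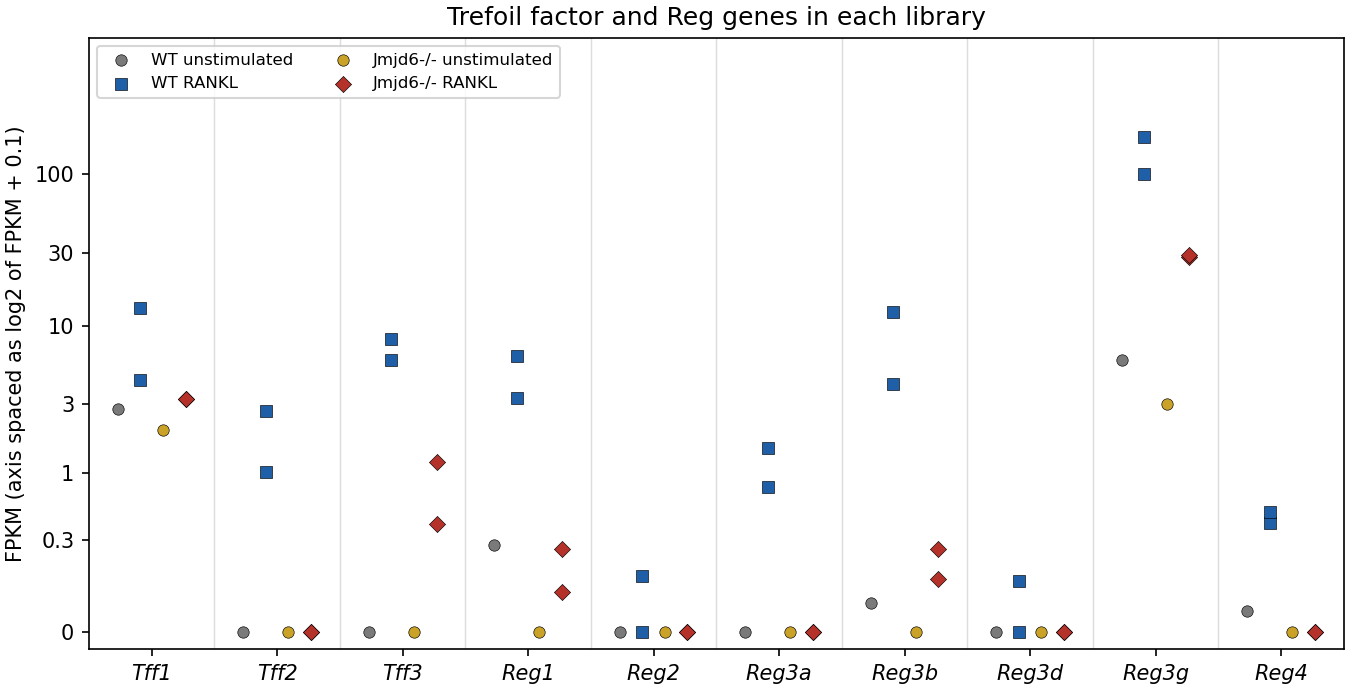
FPKM of the 10 members (x axis) in each of the 6 libraries (y axis spaced as log2 of FPKM with 0.1 added, so that 0 can be drawn), with 1 point per library. Both WT RANKL points (squares) lie above the *Jmjd6*-/- RANKL points (diamonds) for 8 members, and for *Reg3g* they stand at 99.0 and 173 FPKM against 28.2 and 29.1.

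Seen as families, the 10 genes summed to 9.02 and 5.01 FPKM in the unstimulated WT and *Jmjd6*-/- libraries, to 119 and 217 FPKM in the WT RANKL libraries and to 33.0 FPKM in each of the *Jmjd6*-/- RANKL libraries. The 3 trefoil factors alone summed to 2.77 and 2.00 FPKM without RANKL, to 11.3 and 23.9 FPKM in WT with RANKL and to 4.44 and 3.63 FPKM in *Jmjd6*-/- stroma with RANKL. *Reg3g* made up most of the first sum in every library, and *Tff1* most of the second in *Jmjd6*-/- stroma. By mean FPKM in WT stroma with RANKL the order was *Reg3g*, *Tff1*, *Reg3b*, *Tff3*, *Reg1*, *Tff2*, *Reg3a*, *Reg4*, *Reg2* and *Reg3d*. Neighbours in this order whose ranges over the libraries overlapped were *Tff1* with *Reg3b*, *Reg3b* with *Tff3*, *Tff3* with *Reg1*, *Tff2* with *Reg3a* and *Reg2* with *Reg3d*. Within each library *Tff1* was above *Reg3b*, *Tff3* above *Reg1* and *Tff2* above *Reg3a*, whereas *Reg3b* and *Tff3*, and *Reg2* and *Reg3d*, changed places between the libraries. In *Jmjd6*-/- stroma with RANKL the order was *Reg3g*, *Tff1*, *Tff3*, *Reg3b* and *Reg1*, with only the last pair overlapping and changing places, and the other 5 members at 0.

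Under RANKL 8 of the 10 members were lower in both *Jmjd6*-/- libraries than in both WT libraries, a pattern that 22.7% of all 22513 entries showed. The median log2 difference of the 10 members was -2.81, from -4.69 in *Reg3b* to -0.55 in *Reg3d*, against 0 over all entries. With 0 set at its limit, the median over the 8 members that allow a ratio was -3.36. For calls, limma was fitted to log2 of FPKM with 0.1 added over the 15894 entries whose mean reached 0.1 FPKM, using Benjamini-Hochberg adjustment over all of them. This filter kept 8 members, with *Reg4* just inside at a mean of 0.160 FPKM and *Reg2* and *Reg3d* outside at 0.0219 and 0.0190 FPKM. Members at or near 0 outside the WT RANKL libraries, such as *Tff2*, *Reg3a* and *Reg4*, passed it only through these libraries, where they were high. *Reg3b*, at most 0.249 FPKM outside these libraries, did so too. Of the 8, 7 (all but *Tff1*) were called lower in *Jmjd6*-/- stroma, against 1.82% of all entries tested, and 0 were called higher, against 0.516%. Since the members were chosen with these values known, nothing is read from these counts, and the calls rested on the filter and on WT replicate 2, as 0 members were called without the filter and 3 without that library.

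Most members came with RANKL in WT stroma. Both WT RANKL libraries were above the unstimulated WT library for 8 members, against 30.2% of all entries, and both *Jmjd6*-/- RANKL libraries were above the unstimulated *Jmjd6*-/- library for 5 (*Tff1*, *Tff3*, *Reg1*, *Reg3b* and *Reg3g*), against 31.7%. On the log2 scale the difference between RANKL and unstimulated stroma had a median over the 10 members of 3.61 in WT and 0.34 in *Jmjd6*-/- stroma, against 0 over all entries in each. The largest WT values were 6.14 for *Tff3*, 5.55 for *Reg3b* and 4.45 for *Reg3g*. In *Jmjd6*-/- stroma the largest were 3.21 for *Reg3g* and 3.01 for *Tff3*, while *Reg3b* had 1.48, *Reg1* 1.34 and *Tff1* 0.67. The *Jmjd6*-/- means of *Reg1* and *Reg3b* under RANKL, 0.165 and 0.186 FPKM, lay below their unstimulated limits of 0.244 and 0.291 FPKM. No rise in *Jmjd6*-/- stroma is therefore read for either. For *Tff3*, *Jmjd6*-/- replicate 1 was above its unstimulated limit of 0.537 FPKM and replicate 2 was below it. The remaining members were at 0 in every *Jmjd6*-/- library, which keeps the *Jmjd6*-/- median low. Over both genotypes, 4 libraries against 2 with genotype as a term, limma called 4 of the 8 members tested higher with RANKL (*Tff3*, *Reg1*, *Reg3b* and *Reg3g*), against 10.5% of all entries, and 0 lower, against 4.11%. Without *Jmjd6*-/- replicate 1 the calls were *Tff3* and *Reg3g*. The WT RANKL libraries enter both this comparison and the one between genotypes. A difference between the genotypes in the response itself was called by limma for 0 of 15894 entries, with 664 at an unadjusted p under 0.05.

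**Figure D2:**
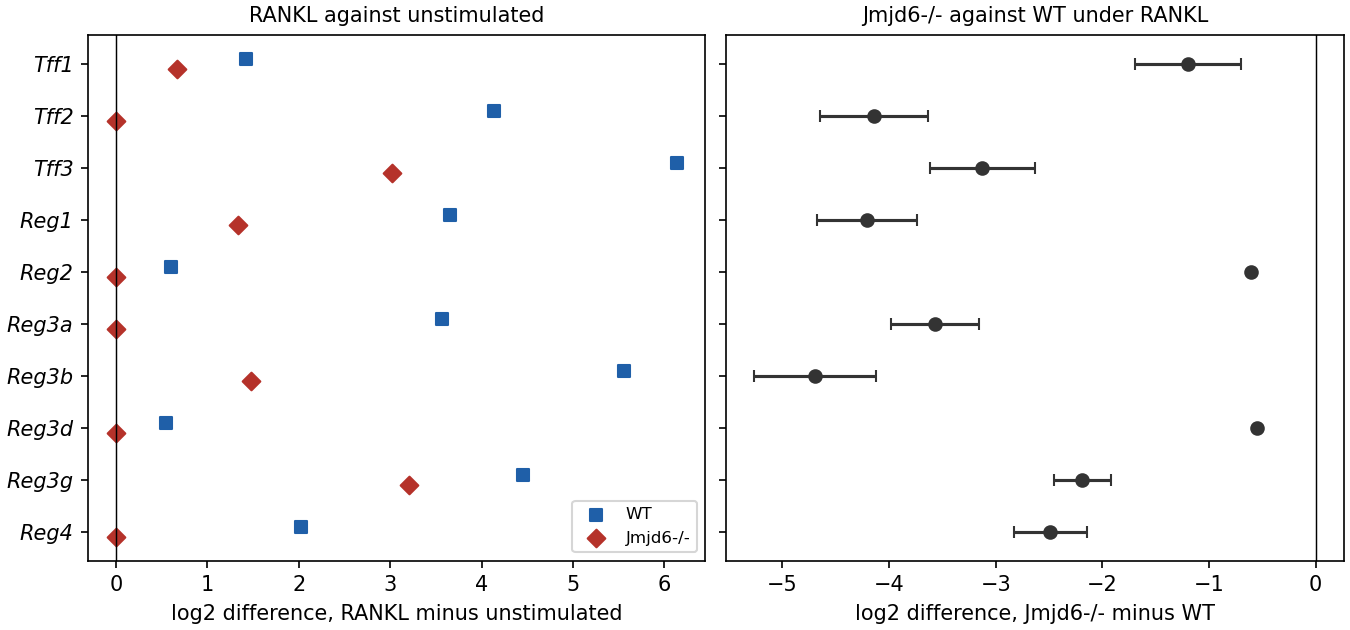
Log2 differences (x axis, log2 of FPKM with 0.1 added) of the 10 members (y axis), left for RANKL minus unstimulated stroma in WT (squares) and *Jmjd6*-/- (diamonds) and right for *Jmjd6*-/- minus WT under RANKL with bars for limma's SE, which *Reg2* and *Reg3d* lack because they were not fitted. *Tff3* has the largest RANKL difference in WT, 6.14, and *Reg3b* the largest genotype difference, -4.69.

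Without RANKL the genotypes had 1 library each, with no spread of their own, and no test is given for this comparison. The *Jmjd6*-/- library was below the WT library for 5 members (*Tff1*, *Reg1*, *Reg3b*, *Reg3g* and *Reg4*), against 39.4% of all entries, and the other 5 were at 0 in both. *Reg3g*, at about 114 and 31 fragments, and *Tff1*, at 48 and 18, were the members with more than 6 fragments here, and their log2 differences were -0.94 and -0.45. The remaining 3 rested on 6, 1 and 1 fragments in WT and 0 in *Jmjd6*-/- stroma. These fragments are not scaled by depth, which was about 31200000 in the WT library and 16300000 in the *Jmjd6*-/- library.

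The WT RANKL libraries themselves were not alike in these genes. Replicate 2 was above replicate 1 for 9 of the 10 members, against 39% of all entries, and the median log2 difference was 0.88 over the members and 0 over all entries. *Reg3b* was 3.00-fold higher in replicate 2, *Tff1* 2.98-fold and *Tff2* 2.68-fold, while *Tff3* was 1.39-fold and *Reg4* 1.22-fold higher. *Reg3d*, with 2 fragments in replicate 1, was the exception. Without replicate 2 the WT mean was 3.46-fold the *Jmjd6*-/- mean for *Reg3g*, 7.41-fold for *Tff3*, 20.0-fold for *Reg1* and 22.0-fold for *Reg3b*. The corresponding values without replicate 1 were 6.04, 10.3, 37.9 and 65.9. The direction therefore held with either WT library.

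Entries around the clusters served to show how far the differences reached along the chromosome. Within 500 kb of a member lay 31 other entries. By limma 0 of the 18 that passed the filter were called between the genotypes under RANKL, while 3 had an unadjusted p under 0.05. The lowest adjusted p, 0.0686, was that of *Rsph1* (log2 -1.53 ± 0.30, SE), a gene of motile cilia beyond *Tff1*. *Abcg1*, a sterol transporter 7325 bases from *Tff3*, was at 11.5 and 14.6 FPKM in WT and at 19.4 and 19.0 FPKM in *Jmjd6*-/- stroma with RANKL (adjusted p = 0.128). With RANKL, limma called 6 of these neighbours. *Slc37a1* (log2 1.96, adjusted p = 0.00105), *Umodl1* (0.87, adjusted p = 0.0231), *Pde4dip* (0.63, adjusted p = 0.0272) and *Phgdh* (0.51, adjusted p = 0.0102) rose, and *Abcg1* (-1.09, adjusted p = 0.00159) and *Ctnna2* (-0.68, adjusted p = 0.0489) fell. *Tmprss3* and *Ubash3a*, the nearest entries beyond *Tff1*, were below 0.05 FPKM in every library. Around the Reg cluster the only entries were *Lrrtm1*, *Ctnna2* and *6330415B21Rik*, which share a locus 391218 bases from *Reg3b*. The reach of the differences around that cluster was therefore hardly covered.

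**Figure D3:**
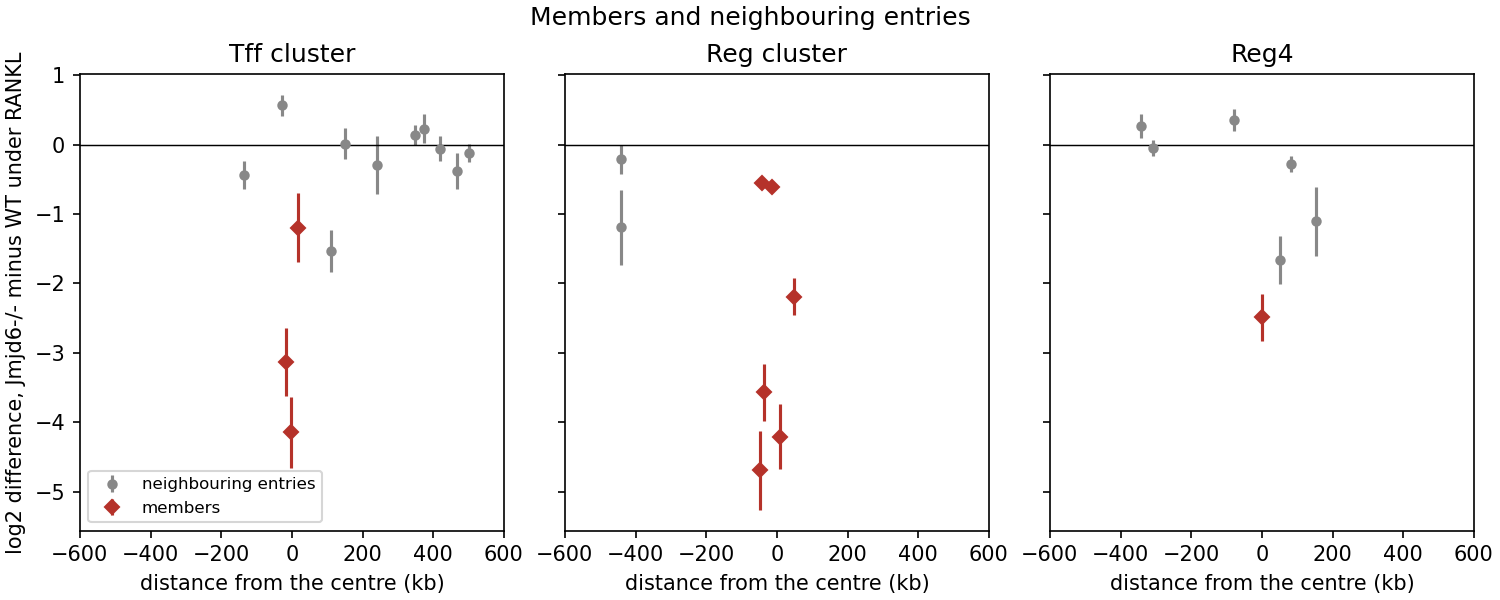
Log2 difference between *Jmjd6*-/- and WT stroma under RANKL (y axis, bars are limma's SE) against the distance in kb from the centre of the trefoil cluster, of the Reg cluster and of *Reg4*, for members (diamonds) and for the neighbouring entries that passed the filter (circles, drawn at the end nearest to the centre). Members reach -4.69, whereas *Rsph1*, beside the trefoil cluster, is at -1.53.

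For the 7 members that reached 1 FPKM in some library, which leaves out *Reg2*, *Reg3d* and *Reg4*, the entries with the closest pattern over the 6 libraries were found by the root mean square difference of centred log2 values, among 13413 entries. For *Reg3g* these were *Alox15* (0.29), *Ccl12* (0.33) and *Nts* (0.36), a lipoxygenase, a chemokine and the neuropeptide neurotensin. *Ccl12*, for example, had 0.887 and 0.337 FPKM without RANKL, 16.4 and 16.9 in WT with RANKL and 4.86 and 5.91 in *Jmjd6*-/- stroma with RANKL. *Tff3* came closest to *Cldn13* (0.36), *Lypd8* (0.43), a secreted protein of the colon, and *Fabp6* (0.48), the bile acid binding protein of the ileum. *Reg3b* came closest to the entry that joins *Mucl1* and *Spt1* (0.53), *Dcpp1* (0.63) and *2210407C18Rik* (0.63), the first of which holds a salivary protein. *Reg1* came closest to *Crabp1* (0.21), *Mgarp* (0.34) and *Rln3* (0.48). *Reg3a* and *Tff2*, from different families and chromosomes, were close to each other (0.30), and both lay near *Lcn8*, at 0.10 and 0.31, with *Tpsg1* (0.26) and *Car4* (0.30) next for *Reg3a* and *Saa2* (0.31) and the *Mucl1* and *Spt1* entry (0.38) for *Tff2*. *Tff1* stood apart. Its nearest were *Sapcd1* (0.19), *Gm5480* (0.23) and *Ndrg1* (0.23), and the other members ranked from 11277 down in likeness to it. Its distance from *Reg3a* (1.06) was nevertheless no larger than that of *Reg3g* from *Reg3b* (1.07). Ranked from *Reg3a*, *Tff1* came at 224. These ranks describe 6 libraries of unlike depth, and at low FPKM they follow few fragments.

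Other genes of the gut, stomach and pancreas were read from 7 lists set by known function. These lists, and those of cell type markers below, were chosen with earlier results of these data known. Their calls and p-values are therefore a description, as for the members. The 7 lists together held 138 entries, of which 94 passed the filter. Under RANKL limma called 8 of the 94 lower and 4 higher in *Jmjd6*-/- stroma, against the 1.82% and 0.516% given above for all entries. The lower calls numbered 1 without WT replicate 2, 33 without WT replicate 1, 5 and 3 without *Jmjd6*-/- replicates 1 and 2, and 0 without the filter, and the higher calls 10 without WT replicate 1 and 1 without either *Jmjd6*-/- replicate. Calls over all 15894 entries moved in these fits as well, to 1737 lower and 2254 higher without WT replicate 1, 149 lower and 208 higher without WT replicate 2, 152 lower and 33 higher without *Jmjd6*-/- replicate 1, and 68 lower and 20 higher without *Jmjd6*-/- replicate 2, from 290 lower and 82 higher with all libraries. With RANKL 28 were called higher and 4 lower, the latter 8 without WT replicate 2.

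Partners and receptors of the members gave 0 calls by limma in either comparison among the 6 tested, with 2 at an unadjusted p under 0.05 in each. *Fcgbp*, the mucus protein that binds *Tff3*, had 4.19 and 6.27 FPKM in WT and 1.81 and 1.46 FPKM in *Jmjd6*-/- stroma with RANKL (log2 -1.60 ± 0.27 SE, limma adjusted p = 0.0530). *Cxcr4*, a reported trefoil receptor, had 9.41 and 11.2 against 6.94 and 6.26 FPKM (log2 -0.63, adjusted p = 0.109). *Extl3*, a reported Reg receptor, stood at 8.64 to 11.8 FPKM in all 6 libraries, and *Lingo2*, another reported receptor of *Tff3*, at 0.120 to 0.276 FPKM. *Muc2* and *Muc5ac*, the mucins released with *Tff3* and *Tff1*, were at most 0.200 and 0.415 FPKM, and *Muc6* and *Gkn2*, the partners of *Tff2* and *Tff1*, were below the filter. With RANKL, *Tff3* was thus more abundant than the mucin it is usually packed with.

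Genes of the cytokine routes that switch on Reg3 genes in the gut, and gut transcription factors, responded to RANKL in part. Between the genotypes limma called 0 of them, with 1 of the cytokine route genes and 8 of the transcription factors at an unadjusted p under 0.05. Of 13 cytokine route genes, *Il6ra* (log2 0.95) and *Socs3* (0.71) rose with RANKL, and *Il22ra1*, the epithelial IL-22 receptor chain, fell by 1.97 and *Il33* by 0.46 on the log2 scale. Of 15 transcription factors, 5 rose with RANKL. *Cdx1*, an intestinal homeobox factor, rose the most, to 23.5 and 28.5 FPKM in WT and 14.0 and 12.2 in *Jmjd6*-/- stroma (log2 6.54 for RANKL), and its difference between genotypes missed the threshold (log2 -0.98, limma adjusted p = 0.0676). *Hnf4g*, *Spib* and *Foxa1* rose by 2.88, 2.88 and 1.32 on the log2 scale. The median log2 differences between the genotypes were 0.06 over the 14 cytokine route genes and -0.25 over the 25 factors, against 0 over all entries.

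Mucus and goblet cell genes gave 3 lower and 2 higher calls between genotypes among 20 tested, and the median log2 difference over the list's 23 entries was -0.43. The lower ones were *Ang4*, a ribonuclease of Paneth and goblet cells, at 10.9 and 11.2 FPKM in WT against 2.11 and 1.61 in *Jmjd6*-/- stroma (log2 -2.52, limma adjusted p = 0.0279), *Zg16*, a lectin of mucus and of zymogen granules, at 1.54 and 2.68 against 0.188 and 0.254 (log2 -2.74, adjusted p = 0.0357), and *Spink4*, at 0.866 and 1.44 against 0 in both (adjusted p = 0.0279). *Muc15* (log2 2.02) and *Tspan8* (1.15) were higher, as they already were without RANKL, where *Tspan8* had 4.06 FPKM in WT and 11.9 FPKM in *Jmjd6*-/- stroma. With RANKL 9 of the 20 rose, led by *Itln1*, an intestinal lectin (log2 4.63), *Ang4* (4.38) and *Muc1* (2.89).

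Gastric and acinar genes gave lower calls only, mostly at low levels. Among 11 gastric genes tested (the median over all 18 entries was -0.97 on the log2 scale), *Pgc*, the zymogen progastricsin, was lower at 2.14 and 3.63 FPKM in WT against 0.0382 and 0.208 in *Jmjd6*-/- stroma (limma adjusted p = 0.0343), as was *Gkn1*, which is secreted by the same cells as *Tff1*, at 0.422 and 0.862 against 0.0321 and 0 (adjusted p = 0.0479). *Anxa10*, *Atp4a* and *Chia* rose with RANKL. Among 15 acinar genes tested (median over all 29 entries -0.53), *Klk1*, *Pla2g1b*, *Zg16* and *Gp2* were lower. *Gp2*, the zymogen granule protein that also marks microfold cells, was at 7.51 and 9.70 against 2.85 and 2.13 FPKM (log2 -1.75, limma adjusted p = 0.0348). *Pla2g1b* was at 0.410 and 0.942 FPKM in WT with RANKL and at 0 in every other library. It thus passed the filter only through the group where it was high. *Spink4* and *Pgc*, at most 0.208 FPKM outside that group, did so too. *Clps*, *Cel* and *Zg16* rose with RANKL and *Amy1*, whose close copies can share its reads, fell by 1.13 on the log2 scale. *Ctrc* and *Sycn* were at 0 in every library, and 12 more entries of the list were below the filter.

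Paneth cell and antimicrobial genes, the functional kin of the Reg3 lectins, gave calls in both directions between the genotypes. At an unadjusted p under 0.05 in limma, 9 of the 20 tested were lower in *Jmjd6*-/- stroma and 3 were higher. The median log2 difference was -0.51 over the 20 tested and -0.21 over all 30 entries. *Ang4* was called lower in *Jmjd6*-/- stroma, and *Defb4*, a beta-defensin, and *Ltf*, lactoferrin, were called higher. *Defb4* was at 0.475 and 1.39 FPKM in WT against 7.21 and 6.58 FPKM (log2 2.92, limma adjusted p = 0.0437). *Defb4* and *Ltf* were already higher without RANKL, where *Defb4* had 6.14 FPKM in WT and 27.8 FPKM in *Jmjd6*-/- stroma. With RANKL 8 rose, led by *S100a8* (log2 7.41), *Ang4* and *Pglyrp1* (3.98), and *Defb4* fell by 2.38 on the log2 scale. *Nos2* rose to 4.38 and 4.37 FPKM in WT and 5.96 and 5.57 FPKM in *Jmjd6*-/- stroma. Of the Paneth cell defensins 5 *Defa* genes were at 0 in all libraries and the highest, *Defa21*, reached 0.752 FPKM in WT RANKL replicate 2, values that are uncertain because near-identical copies can share reads.

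**Figure D4:**
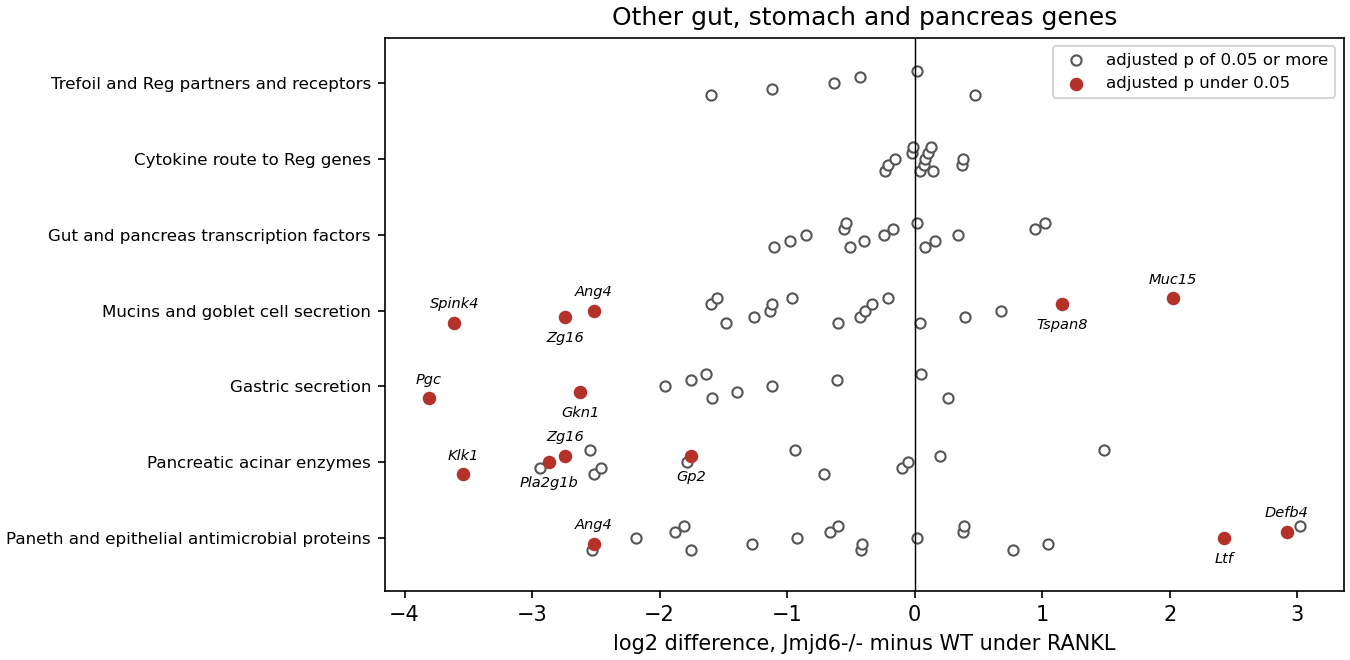
Log2 difference between *Jmjd6*-/- and WT stroma under RANKL (x axis) for each tested gene of the 7 lists (y axis, points spread vertically for legibility), filled and named where limma's adjusted p was under 0.05. *Spink4*, *Pgc* and *Klk1* lie furthest left, and *Defb4* and *Ltf* furthest right among the filled points.

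Marker genes of the cell types in the lobe were read beside these results. By limma 0 of 14 mTEC markers and 0 of 11 markers of cortical thymic epithelial cells were called between the genotypes under RANKL. At an unadjusted p under 0.05 in limma there were 5 and 1. The summed mTEC markers were at 3374 and 4299 FPKM in WT and 4449 and 4279 FPKM in *Jmjd6*-/- stroma. Most of these sums was *Krt5*, at 1006 and 1471 against 1887 and 1879 FPKM, and *H2-Aa*, at 1744 and 2158 against 1938 and 1784 FPKM. They therefore say little about the other markers. With RANKL 11 mTEC markers rose. Of the 5 mTEC markers at an unadjusted p under 0.05, 4 were higher and 1 was lower in *Jmjd6*-/- stroma. *Krt14*, for example, had 15.4 and 23.5 FPKM in WT and 37.2 and 41.8 FPKM in *Jmjd6*-/- stroma (adjusted p = 0.0792), and *Cldn4* 18.0 and 27.2 against 40.4 and 44.2 FPKM (adjusted p = 0.0924). Other lists held markers called lower in *Jmjd6*-/- stroma, as most members were. Of 8 mesenchyme markers, *Col3a1* and *Col1a2* were lower in *Jmjd6*-/- stroma, and the sums under RANKL were 705 and 646 FPKM in WT and 413 and 398 FPKM in *Jmjd6*-/- stroma. Of 7 endothelium markers, *Pecam1* and *Cdh5* were lower, with sums of 17.3 and 23.7 against 7.17 and 6.85 FPKM. Both sums were already lower in *Jmjd6*-/- stroma without RANKL, at 307 against 658 FPKM for mesenchyme and 12.9 against 33.7 FPKM for endothelium. Of 11 neutrophil and mast cell markers tested, *Mpo*, *Mcpt1*, *Mcpt2*, *Mcpt4* and *Ngp* were lower and *Ltf* was higher. The list sums under RANKL were 135 and 185 FPKM in WT and 94.4 and 104 FPKM in *Jmjd6*-/- stroma. Most of each sum was *S100a8*, at 98.2 and 141 against 58.5 and 65.5 FPKM, which was not called (limma adjusted p = 0.0827). *S100a9* went the other way, at 10.4 and 25.5 against 25.7 and 30.2 FPKM, also uncalled. *Kit* had a mean of 4.33 FPKM in each genotype. Those called lower were at most 0.252 FPKM outside the WT RANKL libraries, so they passed the filter only through these libraries. Of that list *Elane*, *Fcer1a*, *Retnlg* and *Ms4a2* were at or near 0. Macrophage transcripts remained after 2-DG, with *Lyz2* at 285 to 346 FPKM and *C1qa* at 78.7 to 142 FPKM over the 6 libraries. The part of these markers in the members' values was not tested. Tuft cell markers (13 tested), macrophage markers (8) and T cell markers (3) gave 0 calls between the genotypes, with 2, 2 and 1 at an unadjusted p under 0.05 and *Rag2* at 0 throughout, and of 10 microfold cell markers limma called *Gp2* lower, with 3 at an unadjusted p under 0.05, all lower.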

How the data were processed

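The 6 libraries were made from poly-A selected RNA of the cultures and sequenced in paired-end mode. Per the labels and the study's methods, the authors filtered the reads, mapped them to mm10 with TopHat 2.0.10, and computed FPKM per gene with Cufflinks 2.1.1, correcting for multi-reads and set to a stranded library type. The deposited FPKM values were used unscaled. The kit named in the labels marks no strand, so genes that overlap on opposite strands are uncertain. Groups came from the titles and the stimulation field, since the protocol field gives RANKL for every sample. The members and gene lists were chosen with earlier results of these data known. Named genes were all members, called list genes (at most 5 per list and comparison) and partners, entries within 500 kb and the 3 likest entries per member, except that some items are not reported here.

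Depth was estimated from the steps of low FPKM values (below 0.15), with transcript length less 150 bases. A group at 0 was given a limit of 3 fragments over its libraries. Ratios of fragments carry exact 95% intervals, which cover counting error only. limma 3.58.1 in R 4.3.3 was fitted to log2 values with 0.1 added, over entries whose mean reached 0.1 FPKM, with a variance trend and a two-sided threshold of 0.05 after Benjamini-Hochberg adjustment. An exact permutation test of 2 against 2 libraries cannot fall below p = 0.333. Replicate numbers did not pair the libraries.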

Additional observations from a re-analysis of the deposited data

How the results depend on the processing

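The log2 difference between the genotypes under RANKL did not change sign for any member under the alternatives, although *Reg2* and *Reg3d*, each seen in 1 WT library, were at 0 without it. Directions of single genes were not followed through the alternatives for the response to RANKL, the lists or the neighbours. With 1 added to FPKM the median log2 difference of the 10 members between the genotypes was -1.26, and with 0.01 added -4.09. Leaving out each RANKL library gave -3.03 to -2.47. The number of members without overlap was 8, or 9 without either WT library. Members called lower in *Jmjd6*-/- stroma numbered 3 with a filter at 1 FPKM, 0 without a filter, and 3 to 7 on leaving out a library. Without the filter limma called 1 entry higher and 1 lower of 22513, with 3512 at an unadjusted p under 0.05. Members called higher with RANKL numbered 2 with 1 added, 2 without the variance trend, 1 without a filter, 1 in the *Jmjd6*-/- libraries alone, and 2 to 5 on leaving out a library. Of the other listed genes, 8 were called lower between genotypes, against 3 with 0.01 added, 3 with a filter at 1 FPKM, 0 without a filter and 1 to 33 on leaving out a library. The 4 called higher became 0 without a filter, 1 without the trend and 1 to 10 on leaving out a library. Those called higher with RANKL numbered 17 in the *Jmjd6*-/- libraries alone, 16 with a filter at 1 FPKM and 14 without a filter. Those called lower with RANKL numbered 1 in the WT libraries alone, 2 without a filter and 3 to 8 on leaving out a library. The causes were not tested, except that a stricter filter tests fewer members. The replicate numbers did not pair the libraries (r = -0.08 between the genotypes' replicate differences), and with the number as a block 8 members and 33 listed genes were called lower and 9 listed genes higher, while the calls over all entries numbered 1077 lower and 382 higher, against 290 and 82 without the block. Where a library was left out of a pair, the lone library was assumed to vary like the others. Equalising the library totals, or scaling by the median ratio, left the member counts between genotypes at 7. A genotype difference in the response to RANKL was called for 0 entries, against 93 higher and 83 lower without the filter, none of them a member.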
